A study of Mus musculus with 16 samples.

Results

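The genes described here are 41 interferon-stimulated genes, chosen by name from the 26357 genes of the deposited count table. They comprise the ligand gene Ifng, 3 chemokines, 6 GTPases, 4 genes of antigen processing and checkpoint signalling, 4 transcription factors, 10 type I targets of the Ifit, Oas and Mx families, and 13 other antiviral effectors or sensors. The study sequenced RNA of 16 mouse samples, 4 in each of 4 groups. IL-23 or vehicle as the agent was crossed with the route, per os (called oral) or intraperitoneal, by which a second vehicle holding 0 mpk of compound was given. Libraries are called here by the number that opens each title: IL-23 oral 14, 24, 68 and 26, IL-23 intraperitoneal 28, 31, 25 and 61, vehicle oral 27, 33, 4 and 51, and vehicle intraperitoneal 49, 59, 67 and 50. The labels give no strain, sex, age, tissue or day, and do not state that each sample came from a separate animal, so every p-value is set by the spread among samples, part of which may be technical.

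Interferons are secreted proteins that reach the nucleus of a responding cell through JAK kinases and STAT proteins. Type I interferons act through a complex of STAT proteins and IRF9 that binds interferon-stimulated response elements in front of antiviral genes such as the Ifit, Oas and Mx families. Interferon gamma, made mainly by T cells and natural killer cells, acts through STAT homodimers on gamma-activated sites and induces IRF1, guanylate-binding proteins and the chemokine CXCL9. The classes overlap, since IRF1 also binds response elements of the first kind and many genes respond to both ligands.

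The DNA in front of these genes is shown as a description, and matches were not set against the changes below. The 250 bases before each start were read from RefSeq promoter windows of GRCm38.p6, which held 33 of the 41 genes in 37 windows. A response element core was searched as 2 copies of GAAA with any 2 bases between them, and a gamma-activated site as TTCNNNGAA, on both strands; a response element core and a gamma-activated site could share bases. The core was found in 40.5% of the members' windows and in 2.98% of all 32851 windows. The gamma-activated letters were found in 27.0% and in 7.02%. In the interferon gamma class the core was found for 4 genes and the gamma-activated letters for 3 of the 6. In the type I class, of which 7 genes had a window, the counts were 4 and 2. Capitals mark the matches in the stretches below, and each stretch lies upstream of its gene's start.
Gbp2 (chr3:142620579-142620638, plus strand): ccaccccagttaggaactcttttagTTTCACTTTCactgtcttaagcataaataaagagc
Gbp7 (chr3:142530205-142530317, plus strand): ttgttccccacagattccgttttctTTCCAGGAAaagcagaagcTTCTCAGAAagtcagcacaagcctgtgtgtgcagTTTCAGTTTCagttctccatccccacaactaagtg
Irf1 (chr11:53769899-53769957, plus strand): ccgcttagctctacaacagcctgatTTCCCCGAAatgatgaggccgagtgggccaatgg
Igtp (chr11:58199486-58199555, plus strand): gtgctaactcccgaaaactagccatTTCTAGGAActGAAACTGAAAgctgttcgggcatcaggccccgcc
Cxcl10 (chr5:92349068-92349127, minus strand): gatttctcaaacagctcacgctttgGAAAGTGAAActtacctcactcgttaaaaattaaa
Ifit1 (chr19:34640760-34640838, plus strand): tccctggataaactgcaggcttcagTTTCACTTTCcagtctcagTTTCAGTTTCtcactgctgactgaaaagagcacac
Oas3 (chr5:120777700-120777759, minus strand): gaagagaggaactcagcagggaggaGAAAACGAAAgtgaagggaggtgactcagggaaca
Isg15 (chr4:156200850-156200921, minus strand): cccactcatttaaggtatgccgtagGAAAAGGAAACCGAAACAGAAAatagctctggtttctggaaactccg
Gbp2, Cxcl10, Ifit1, Oas3 and Isg15 carried only the response element core in this window, Irf1 only the gamma-activated letters, and Gbp7 and Igtp carried both. The stretches are examples, and other members with a match are not printed. Among the class targets not printed, Gbp3 and Ifit3 carried only the core, Ifit2 only the gamma-activated letters, and Gbp5 and Oas1a both. A match is a description of these letters and not a measured binding site.

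Library totals ran from 6381990 to 14432930 counts, and 17012 to 18287 genes had a count. Library 28, of the IL-23 intraperitoneal group, stood apart and bears on every intraperitoneal value. It was the highest of all 16 libraries in 41 of 41 members, and in 14.3% of all 14671 genes tested. It exceeded the next-highest library by more than 2-fold in 35 of the 41 members, against 2.24% of all genes tested. These shares are a description. Library 28 had been singled out beforehand, and the members were chosen with earlier results of these data known. The ratio to the next-highest library ran from 1.28 for Ifih1 to 11.2 for Gbp2. Summed marker levels in the same library were also apart for some lists. T cell markers (12 genes, none at 0) summed to 103 CPM (counts per 1000000) there, against a range of 21 to 37.6 for the remaining 7 IL-23 libraries and 19.6 to 28.4 for vehicle. Natural killer and cytotoxic markers (9 genes, none at 0) summed to 49.5 CPM against 9.62 to 22.2 and 5.33 to 9.05, and monocyte and macrophage markers (10 genes, none at 0) to 1330 CPM against 507 to 855 and 245 to 373. B cell and lymph node markers summed to 10.8 CPM, with 4 of 10 genes at 0, against 4.7 to 7.98 with IL-23 elsewhere and 3.66 to 11 with vehicle, and keratinocyte markers to 36800 CPM against 46800 to 67000 and 24400 to 32500. Endothelial markers summed to 142 CPM against 70.9 to 115 and 93.7 to 207, and plasmacytoid dendritic cell markers to 22 CPM against 26.3 to 40.7 and 37.4 to 68.2. Neutrophil (61 CPM), skeletal muscle (1360 CPM) and red blood cell (3 CPM) sums lay inside the range of the other IL-23 libraries. Gzmb, which encodes the protease granzyme B, was at 23.3 CPM against at most 3.93 CPM in another IL-23 library, and Fcgr1, a macrophage Fc receptor, at 58.6 CPM against at most 11 CPM. The part of these cell markers in the interferon values was not tested, and in RNA from whole samples more cells of a type cannot be told apart from more RNA per cell. Counts of calls below are therefore given with and without library 28, and so is each member's change where leaving it out altered the call or the size appreciably.

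Of the 41 genes, 39 passed the filter on low counts, with or without library 28, and Ifng and Cxcl11 did not. Changes are log2 fold changes of IL-23 over vehicle from edgeR's quasi-likelihood test with their standard error (SE), and a gene is called when its Benjamini-Hochberg adjusted p over all genes tested is below 0.05. After oral dosing 14 of 39 members were called higher (35.9%) and 0 lower, against 29.2% higher and 34.0% lower over all genes tested, so the share called higher was close to the background. Without library 28 the counts were 26 higher (66.7%) and 2 lower, against 32.1% and 33.7%. Library 28 is not an oral library. It enters this comparison through what the 4 groups share in the fit: the spread, the count filter and the scaling factors. A fit of the oral groups alone also called 26 members higher, 25 of them the same genes. After intraperitoneal dosing 30 of 39 members were called higher (76.9%) and 0 lower, against 30.8% and 30.9% of all genes, and with library 28 left out 23 were higher (59.0%) and 1 lower, against 30.5% and 30.4%. Over the mean of both routes 30 were higher and 0 lower, against 34.9% and 38.7% of all genes, and 28 and 2 without library 28, against 36.1% and 38.3%. Without library 28, 22 members were called higher in each route: Irf1, Irf9, Isg15, Oas1a, Oas2, Oas3, Oasl1, Oasl2, Ifih1, Bst2, Zbp1, Rtp4, Cxcl9, Cxcl10, Gbp2, Gbp7, Igtp, Irgm1, Tap1, Psmb8, Psmb9 and Cd274. The share of all genes called higher in each route at once is not given, so this count has no background beside it. Stat2, Rsad2, Usp18 and Dhx58 were called there in the oral comparison and Gbp3 in the intraperitoneal comparison, and the difference between routes was not called for any of them. With library 26, the highest oral IL-23 library in many members, left out as well, 21 members were called higher after oral dosing, and Stat2, Rsad2, Usp18, Dhx58 and Bst2 were no longer called. With plain library sizes in place of TMM factors and without library 28, which moved the median of all genes by -0.23 oral and -0.26 intraperitoneal, 20 members were higher after oral dosing, with Stat2, Rsad2, Usp18, Ifih1, Dhx58 and Bst2 no longer called. In that fit 17 members were higher and 4 lower after intraperitoneal dosing. Oas1a, Oas2, Oasl2, Bst2, Gbp3 and Gbp7 were no longer called, and Irf7, Ifit2 and Ddx58 were called lower. For the oral groups alone, library 26 left out as well, and plain library sizes, the share of all genes called is not given. Those counts therefore have no background beside them.

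The median change over the 39 members was 0.64 oral and 1.62 intraperitoneal, beside -0.06 and -0.02 over all genes tested. Without library 28 these medians were 0.67 and 0.73, beside -0.03 and -0.02 for all genes tested. Every IL-23 library lay above every vehicle library in 20 of 39 members after oral dosing, against 27.9% of all genes, and every IL-23 library lay below in 2, against 31.8%. With library 28 left out of the intraperitoneal group the counts were 18 above, against 28.8%, and 1 below, against 31.1%.

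**Figure D1:**
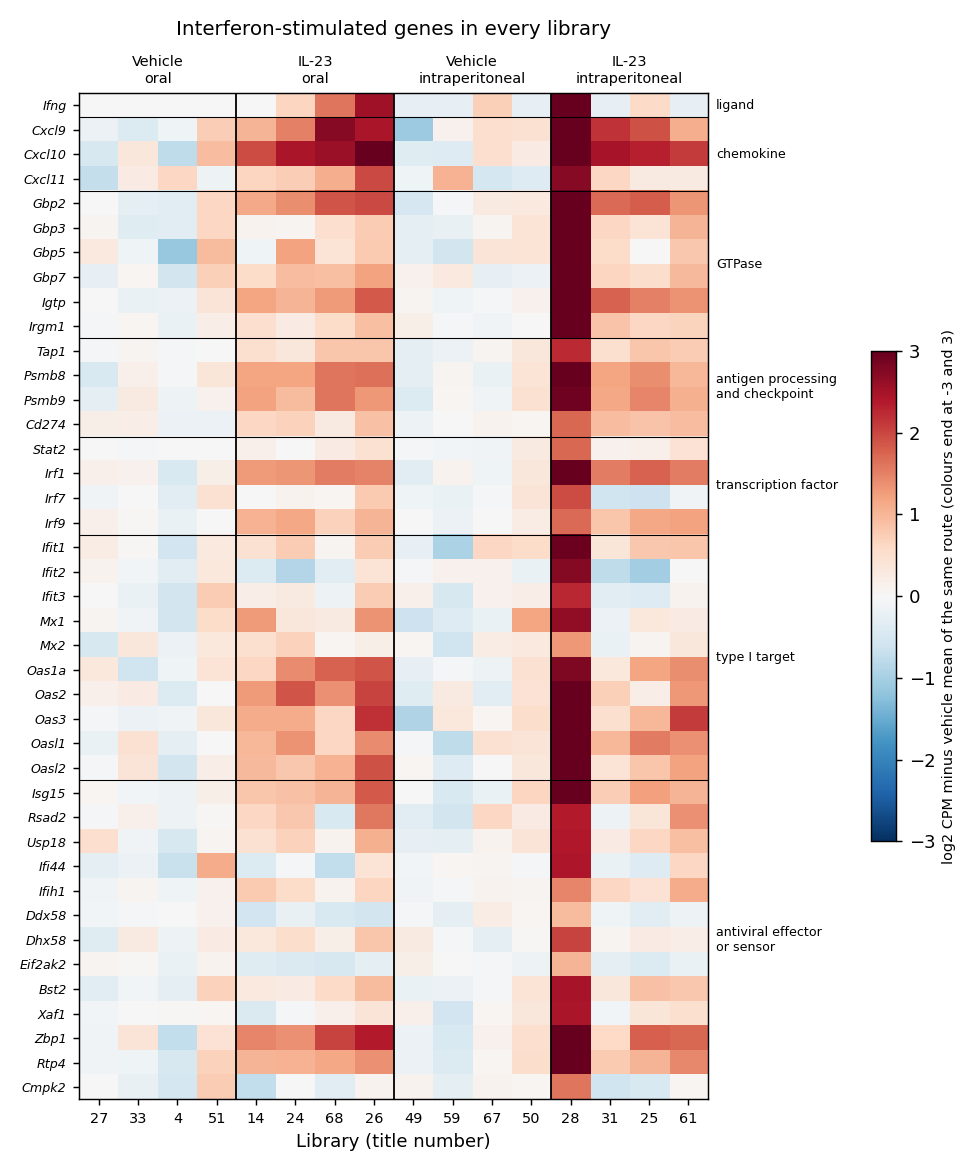
Log2 CPM of each of the 41 genes in each of the 16 libraries, minus the vehicle mean of the same route, with genes ordered by role and libraries named by title number. Red is higher and blue lower; library 28 is the darkest column, while Ifit2, Ddx58, Eif2ak2 and Cmpk2 are pale or blue in most other IL-23 libraries.

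Ifng, on chromosome 10 (118441046-118445894), encodes interferon gamma itself. It was counted 0 times in the 4 vehicle oral libraries together, and 0, 1, 4 and 8 times in IL-23 oral libraries 14, 24, 68 and 26. The intraperitoneal vehicle libraries held 2 counts, both in library 67, and the IL-23 intraperitoneal libraries 28, 31, 25 and 61 held 29, 0, 1 and 0. The oral ratio was at least 6.25-fold, taken against a floor of 3 counts over the vehicle group, and 3 of 4 IL-23 libraries held a count. The intraperitoneal ratio was 23.3 (95% interval from counting error alone 5.91 to 201) and fell to 1.10 (0.0187 to 21.2) without library 28, so it rested on that library. In the fit without a count filter, over 20799 genes, the adjusted p was 0.0564 oral and 0.0294 intraperitoneal, and 0.00579 and 0.996 without library 28.

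Of 20 other interferon ligand genes, named from a list of type I and type III interferons, 4 had any count and none passed the filter. Ifnb1, which encodes interferon beta, had 1 count in library 28 and 0 in the other 15 libraries. Ifna13 had 3 counts over the 8 vehicle libraries and 2 over the IL-23 libraries, and Ifnab had 0 and 1. Ifnk, which encodes interferon kappa, had 17 counts over the vehicle libraries, 3 in library 28 and 8 over the other 7 IL-23 libraries. Neither a type I nor a type III ligand transcript was measurable at this depth beyond these counts.

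The chemokines recruit T cells and natural killer cells through the receptor CXCR3, and their genes sit side by side on chromosome 5 (92321331-92363296). Cxcl9, a classic target of interferon gamma, stood at 1.46, 1.2, 1.51 and 2.94 CPM in vehicle oral libraries 27, 33, 4 and 51 and 3.61, 5.19, 12.4 and 10 CPM in IL-23 oral libraries 14, 24, 68 and 26. By the other route it stood at 0.719, 1.99, 2.6 and 2.51 CPM in vehicle intraperitoneal libraries 49, 59, 67 and 50, 135 CPM in library 28 and 8.68, 7.3 and 3.98 CPM in libraries 31, 25 and 61, the order kept for every gene below. The groups did not overlap in either route, with or without library 28. The oral change was 2.18 ± 0.98 (SE, adjusted p = 0.0601), not called, and 2.21 ± 0.42 (SE, adjusted p = 0.000159) without library 28; the intraperitoneal change was 4.39 ± 0.94 (SE, adjusted p = 0.000731) and 1.87 ± 0.45 (SE, adjusted p = 0.00173). Cxcl10 stood at 1.58, 3, 1.27 and 4.56 CPM in vehicle oral and 9.52, 13.5, 14.9 and 26.3 CPM in IL-23 oral. It stood at 2.16, 2.14, 4.1 and 3.43 CPM in vehicle, 154 CPM in library 28 and 16.8, 15.2 and 12.9 CPM in the other IL-23 libraries. Its oral change of 2.62 ± 0.76 (SE, adjusted p = 0.00623) was the highest of the 39 members tested, and the intraperitoneal change was 4.12 ± 0.75 (SE, adjusted p = 0.000162), or 2.4 ± 0.36 (SE, adjusted p = 2.12e-05) without library 28. Cxcl11 was near the limit of counting, at 8 counts for vehicle and 19 for IL-23 after oral dosing, a ratio of 3.42 (1.43 to 9.04), and 14 and 32 after intraperitoneal dosing, a ratio of 3.55 (1.84 to 7.20) that was 1.26 (0.458 to 3.22) without library 28. These intervals cover counting error only.

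The GTPases attack the vacuoles of intracellular microbes. Gbp5, Gbp7, Gbp3 and Gbp2 are guanylate-binding proteins whose genes lie along chromosome 3 (142496934-142638008). Gbp2 stood at 12.9, 10.9, 10.3 and 20.5 CPM in vehicle oral and 29.1, 34.7, 48.8 and 51.9 CPM in IL-23 oral. After intraperitoneal dosing it stood at 10.8, 14.6, 18.6 and 18.9 CPM in vehicle, 607 CPM in library 28 and 49.9, 54.2 and 38.8 CPM in the other IL-23 libraries. No IL-23 library overlapped vehicle in either route, and library 28 lay 11.2-fold above the next library. Its change was 1.61 ± 0.72 (SE, adjusted p = 0.0591) oral and 3.61 ± 0.72 (SE, adjusted p = 0.000394) intraperitoneal; without library 28 the routes gave 1.64 ± 0.23 (SE, adjusted p = 6.4e-06) and 1.64 ± 0.24 (SE, adjusted p = 1.59e-05), the same size. Gbp7 stood at 5.6, 7, 4.53 and 11.1 CPM in vehicle oral and 9.85, 12.9, 12.7 and 15.6 CPM in IL-23 oral. It stood at 9.81, 11, 7.4 and 7.79 CPM in vehicle, 119 CPM in library 28 and 14, 12.8 and 17.6 CPM in the other IL-23 libraries by the other route. The oral groups overlapped through vehicle library 51, and the intraperitoneal groups did not overlap. Its oral change was 0.87 ± 0.59 (SE, adjusted p = 0.21), not called, and 0.9 ± 0.23 (SE, adjusted p = 0.00206) without library 28, and its intraperitoneal change 2.19 ± 0.56 (SE, adjusted p = 0.00303) and 0.72 ± 0.24 (SE, adjusted p = 0.0146).

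Gbp3 and Gbp5 overlapped between IL-23 and vehicle in each route. Gbp3 stood at 8.65, 6.2, 6.36 and 12.5 CPM in vehicle oral and 8.7, 8.57, 11.5 and 13.8 CPM in IL-23 oral. After intraperitoneal dosing it stood at 6.74, 7.15, 8.91 and 11.2 CPM in vehicle, 113 CPM in library 28 and 12.8, 11.2 and 17.2 CPM in the other IL-23 libraries. The oral IL-23 libraries lay inside or just above the vehicle range, and library 28 lay far above. Gbp3 changed by 0.36 ± 0.6 (SE, adjusted p = 0.614) oral, not called, and by 2.22 ± 0.58 (SE, adjusted p = 0.00319) intraperitoneal, which was 0.73 ± 0.25 (SE, adjusted p = 0.0187) without library 28. Gbp5 stood at 2.92, 2.13, 0.954 and 4.67 CPM in vehicle oral and 2.13, 5.68, 3.19 and 4.19 CPM in IL-23 oral. It stood at 2.16, 1.75, 3.5 and 3.56 CPM in vehicle, 61.3 CPM in library 28 and 3.92, 2.59 and 4.81 CPM in the other IL-23 libraries after intraperitoneal dosing. Its groups overlapped in both routes, with or without library 28. The intraperitoneal change of 2.79 ± 0.8 (SE, adjusted p = 0.00623) became 0.52 ± 0.43 (SE, adjusted p = 0.303) without library 28, which ends the call, and the oral change was 0.6 ± 0.39 (SE, adjusted p = 0.185) there. The immunity-related GTPases Igtp and Irgm1, on chromosome 11, did not overlap between IL-23 and vehicle in either route. Igtp averaged 9.36 ± 1.95 CPM in vehicle oral and 24.1 ± 6.71 CPM in IL-23 oral (SD, n = 4 each), and 10.2 ± 0.827 CPM in vehicle intraperitoneal (n = 4) against 30.6 ± 4.71 CPM in the 3 IL-23 libraries other than 28, which held 241 CPM. Its change was 1.41 ± 0.18 (SE, adjusted p = 2.33e-06) oral and 1.6 ± 0.19 (SE, adjusted p = 1.44e-06) intraperitoneal without library 28, and 1.38 ± 0.58 (SE, adjusted p = 0.0474) and 3.04 ± 0.57 (SE, adjusted p = 0.000225) with it, the oral call with library 28 in the fit being lost without any of 12 other libraries. Irgm1 changed by 0.6 ± 0.13 (SE, adjusted p = 6e-04) and 0.74 ± 0.14 (SE, adjusted p = 0.000217) without library 28, and by 0.57 ± 0.47 (SE, adjusted p = 0.305), not called, and 1.93 ± 0.47 (SE, adjusted p = 0.00186) with it.

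Among the transcription factors, Irf1, a primary target of interferon gamma on chromosome 11 (53770014-53778374), was separate between IL-23 and vehicle. It stood at 23.5, 23.3, 15.4 and 24 CPM in vehicle oral and 51.9, 53.7, 62.1 and 59.8 CPM in IL-23 oral. It stood at 16.9, 22.5, 19 and 26.5 CPM in vehicle, 201 CPM in library 28 and 60.9, 72 and 61.3 CPM in the other IL-23 libraries by the other route. The lowest IL-23 library held 51.9 CPM and the highest vehicle library 26.5 CPM over both routes. The change was 1.4 ± 0.31 (SE, adjusted p = 0.000931) oral and 2.24 ± 0.32 (SE, adjusted p = 1.49e-05) intraperitoneal, and 1.44 ± 0.14 (SE, adjusted p = 1.15e-07) and 1.64 ± 0.15 (SE, adjusted p = 8.8e-08) without library 28. Irf9, which joins the STAT proteins in the type I response complex, rose by 0.99 ± 0.16 (SE, adjusted p = 4.1e-05) oral and 1.27 ± 0.16 (SE, adjusted p = 3.73e-06) intraperitoneal, and by 1.03 ± 0.12 (SE, adjusted p = 1.01e-06) and 1.1 ± 0.13 (SE, adjusted p = 1.45e-06) without library 28, its groups separate in each route. Stat2, the other specific subunit of that complex, changed by 0.26 ± 0.1 (SE, adjusted p = 0.0319) oral and 0.26 ± 0.11 (SE, adjusted p = 0.0555) intraperitoneal without library 28, the latter not called, and by 0.23 ± 0.26 (SE, adjusted p = 0.453), not called, and 0.79 ± 0.26 (SE, adjusted p = 0.015) with it. Irf7, the amplifier of type I interferon genes, was called in neither route: 0.26 ± 0.45 (SE, adjusted p = 0.627) and 0.63 ± 0.43 (SE, adjusted p = 0.217), or 0.29 ± 0.2 (SE, adjusted p = 0.2) and -0.41 ± 0.22 (SE, adjusted p = 0.108) without library 28. Library 28 held 102 CPM of Irf7, while libraries 31, 25 and 61 held 17.2, 17.0 and 24.2 CPM against 22.4 to 34.2 CPM in vehicle.

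Of the 4 genes of antigen processing and checkpoint signalling, 3 were called higher oral (75%, against 29.2% of all genes) and 4 intraperitoneal (100%, against 30.8%). Without library 28, 4 were called higher in each route (100%, against 32.1% oral and 30.5% intraperitoneal). Psmb9, Tap1 and Psmb8 lie together on chromosome 17 (34182030-34201454); Psmb8 and Psmb9 encode immunoproteasome subunits and Tap1 a peptide transporter. Psmb8 averaged 18.9 ± 4.43 CPM in vehicle oral and 49.8 ± 8.97 CPM in IL-23 oral, and 22.4 ± 4.97 CPM in vehicle intraperitoneal against 50.9 ± 7.09 CPM in IL-23 intraperitoneal without library 28 (SD, n = 4, 4, 4 and 3), with 222 CPM in library 28. No IL-23 library overlapped vehicle for Psmb8, Psmb9, Tap1 or Cd274 in either route. Psmb8 rose by 1.4 ± 0.41 (SE, adjusted p = 0.00678) oral and 2.09 ± 0.4 (SE, adjusted p = 0.000304) intraperitoneal, the latter 1.22 ± 0.18 (SE, adjusted p = 2.14e-05) without library 28. For Psmb9 the values were 1.28 ± 0.34 (SE, adjusted p = 0.0038) and 1.88 ± 0.34 (SE, adjusted p = 0.000159), the latter 1.26 ± 0.2 (SE, adjusted p = 3.15e-05) without library 28. Tap1 changed by 0.64 ± 0.28 (SE, adjusted p = 0.0576) oral, not called, or 0.67 ± 0.13 (SE, adjusted p = 0.000191) without library 28, and by 1.25 ± 0.28 (SE, adjusted p = 0.00116) intraperitoneal, or 0.7 ± 0.14 (SE, adjusted p = 0.000342). Cd274, which encodes the checkpoint ligand PD-L1, rose by 0.62 ± 0.18 (SE, adjusted p = 0.00514) oral and 1.16 ± 0.17 (SE, adjusted p = 2.68e-05) intraperitoneal, or 0.93 ± 0.12 (SE, adjusted p = 5.38e-06) without library 28.

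**Figure D2:**
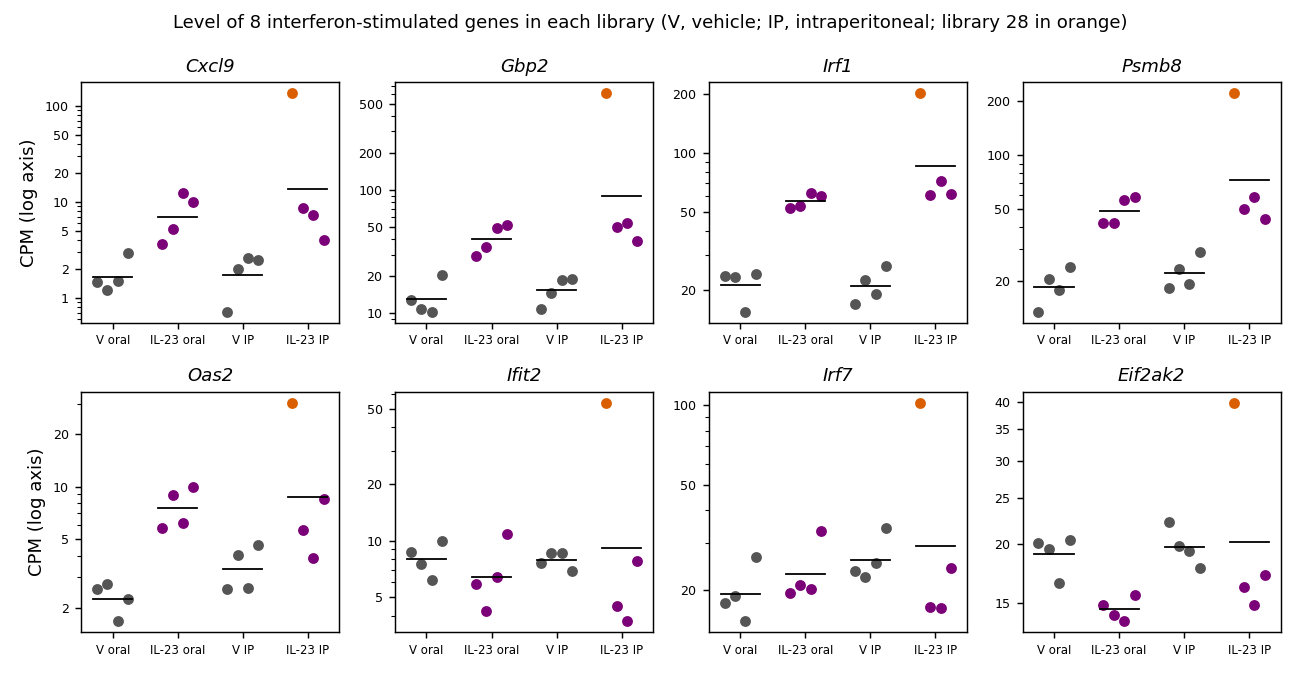
CPM on a log axis of 8 genes in each library, by group, with each point a library and each bar the geometric mean of the group. Cxcl9, Gbp2, Irf1 and Psmb8 are separated between IL-23 and vehicle in both routes, Ifit2 and Irf7 overlap, and Eif2ak2 lies below the vehicle libraries of the same route in every IL-23 library except library 28, at 39.9 CPM.

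Among the type I targets, all 5 members of the oligoadenylate synthetase and synthetase-like group were called higher in both routes without library 28. Over all genes the shares called higher there were 32.1% oral and 30.5% intraperitoneal. With plain library sizes and without library 28, Oas1a, Oas2 and Oasl2 were not called after intraperitoneal dosing. The 3 Ifit and 2 Mx members were called in neither route without library 28 by edgeR on all 4 groups. Outside the members, Oas1c averaged 11.4 CPM in vehicle against a median of 11.7 CPM in the IL-23 libraries other than 28. Oas1b stood at 2.24 against 4.19 CPM and Oas1g at 0.71 against 1.21 CPM, in the same order. Over the mean of both routes without library 28, Ifit1 was called higher, at 0.6 ± 0.22 (SE, adjusted p = 0.0223), and no test compared the families. Oas proteins with synthetase activity make the second messenger that activates the antiviral nuclease RNase L. Oas2, Oas3 and Oas1a lie on chromosome 5 (120730333-120907544), with Oasl2 and Oasl1 elsewhere on it (114896926-114937911). Oas1a stood at 1.71, 0.8, 1.19 and 1.83 CPM in vehicle oral and 2.13, 3.86, 5 and 5.46 CPM in IL-23 oral. It stood at 1.31, 1.51, 1.4 and 2.24 CPM in vehicle, 12.3 CPM in library 28 and 2.02, 3.89 and 4.48 CPM in the other IL-23 libraries by the other route. The oral groups were separate and the intraperitoneal groups overlapped at library 31. Oas1a rose by 1.63 ± 0.47 (SE, adjusted p = 0.00645) oral and by 1.86 ± 0.46 (SE, adjusted p = 0.00211) intraperitoneal, or 1.12 ± 0.37 (SE, adjusted p = 0.0142) without library 28. Oas2 stood at 2.56, 2.73, 1.67 and 2.23 CPM in vehicle oral and 5.75, 8.94, 6.17 and 9.9 CPM in IL-23 oral. It stood at 2.55, 4.05, 2.6 and 4.62 CPM in vehicle, 30.5 CPM in library 28 and 5.59, 3.89 and 8.46 CPM in the other IL-23 libraries after intraperitoneal dosing. Only the oral groups were separate. Its oral change was 1.74 ± 0.51 (SE, adjusted p = 0.00668), and its intraperitoneal change 1.85 ± 0.48 (SE, adjusted p = 0.00331), or 0.82 ± 0.29 (SE, adjusted p = 0.021) without library 28. Oas3 stood at 1.34, 1.2, 1.27 and 1.83 CPM in vehicle oral and 3.28, 3.26, 2.23 and 7.11 CPM in IL-23 oral. It stood at 0.458, 1.35, 1.1 and 1.58 CPM in vehicle, 16.6 CPM in library 28 and 1.55, 2.27 and 5.14 CPM in the other IL-23 libraries by the other route. The oral groups were separate, and library 31 overlapped intraperitoneal vehicle. Oas3 changed by 1.49 ± 0.62 (SE, adjusted p = 0.044) oral, a call that was lost when any of 10 other single libraries was left out and was 1.53 ± 0.41 (SE, adjusted p = 0.00347) without library 28, and by 2.59 ± 0.63 (SE, adjusted p = 0.00186) intraperitoneal, or 1.45 ± 0.49 (SE, adjusted p = 0.0157) without library 28.

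Oasl1 and Oasl2, the synthetase-like genes, were separate between IL-23 and vehicle in each route. Oasl1 stood at 1.1, 1.87, 1.03 and 1.32 CPM in vehicle oral and 2.79, 3.62, 2.13 and 3.81 CPM in IL-23 oral. It stood at 0.915, 0.476, 1.4 and 1.32 CPM in vehicle, 10.7 CPM in library 28 and 2.14, 3.24 and 2.82 CPM in the other IL-23 libraries by the other route. Its change was 1.18 ± 0.47 (SE, adjusted p = 0.0363) oral and 2.27 ± 0.48 (SE, adjusted p = 6e-04) intraperitoneal, or 1.21 ± 0.31 (SE, adjusted p = 0.00236) and 1.46 ± 0.36 (SE, adjusted p = 0.00208) without library 28. Oasl2 stood at 4.99, 6.8, 3.5 and 5.98 CPM in vehicle oral and 10.3, 9.18, 10.8 and 19.9 CPM in IL-23 oral. It stood at 6.28, 4.61, 6.1 and 7.65 CPM in vehicle, 75.4 CPM in library 28 and 8.08, 11 and 14.3 CPM in the other IL-23 libraries after intraperitoneal dosing. Library 26 was the highest oral library and library 28 the highest of all. Oasl2 changed by 1.24 ± 0.56 (SE, adjusted p = 0.0632) oral, not called, or 1.27 ± 0.26 (SE, adjusted p = 0.000331) without library 28, and by 2.17 ± 0.55 (SE, adjusted p = 0.00254) intraperitoneal, or 0.87 ± 0.28 (SE, adjusted p = 0.0125).

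The Ifit proteins bind viral RNA, and Ifit2, Ifit3 and Ifit1 lie along chromosome 19 (34550550-34650009). Ifit1 stood at 4.75, 4.13, 2.62 and 4.97 CPM in vehicle oral and 5.58, 6.88, 4.25 and 6.98 CPM in IL-23 oral. It stood at 3.33, 1.99, 6.3 and 5.94 CPM in vehicle, 32.3 CPM in library 28 and 5.23, 7.13 and 7.3 CPM in the other IL-23 libraries by the other route. Its groups overlapped in both routes. The intraperitoneal change of 1.62 ± 0.49 (SE, adjusted p = 0.00893) was 0.63 ± 0.33 (SE, adjusted p = 0.106) without library 28, which ends the call, and the oral change was 0.57 ± 0.3 (SE, adjusted p = 0.107) there. Ifit2 stood at 8.65, 7.53, 6.2 and 10 CPM in vehicle oral and 5.91, 4.23, 6.38 and 10.8 CPM in IL-23 oral. It stood at 7.59, 8.58, 8.61 and 6.86 CPM in vehicle, 54.1 CPM in library 28 and 4.52, 3.73 and 7.79 CPM in the other IL-23 libraries after intraperitoneal dosing. Outside library 28 its IL-23 values reached below every vehicle library and overlapped the rest. Ifit2 changed by -0.21 ± 0.25 (SE, adjusted p = 0.477) oral and -0.57 ± 0.29 (SE, adjusted p = 0.0947) intraperitoneal without library 28, neither called, and by 1.17 ± 0.6 (SE, adjusted p = 0.0987) intraperitoneal with it, not called. With plain library sizes the intraperitoneal value without library 28 was -0.82 and called lower. Ifit3 stood at 9.62, 8.33, 6.52 and 16.5 CPM in vehicle oral and 11.2, 11.6, 8.61 and 16.5 CPM in IL-23 oral. It stood at 12, 7.78, 11.8 and 12.4 CPM in vehicle, 52.3 CPM in library 28 and 8.68, 8.27 and 11.6 CPM in the other IL-23 libraries by the other route. Vehicle library 51 was as high as the highest oral IL-23 library. Ifit3 was called in neither route, at 0.26 ± 0.25 (SE, adjusted p = 0.371) oral and -0.19 ± 0.28 (SE, adjusted p = 0.575) intraperitoneal without library 28, and 0.9 ± 0.47 (SE, adjusted p = 0.109) intraperitoneal with it. Reads of Ifit3 and of its near-identical neighbour Ifit3b, and reads within the Oas1 family, may be split by a counting rule that no label states.

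Mx1 and Mx2, dynamin-like GTPases that trap viral nucleocapsids, lie on chromosome 16 (97447035-97560901). Mx1 stood at 1.46, 1.27, 0.875 and 2.13 CPM in vehicle oral and 3.61, 1.81, 1.7 and 3.81 CPM in IL-23 oral. It stood at 0.915, 1.11, 1.3 and 3.69 CPM in vehicle, 10.6 CPM in library 28 and 1.31, 1.95 and 1.82 CPM in the other IL-23 libraries by the other route. Vehicle library 50 lay above every IL-23 intraperitoneal library except library 28. By edgeR on all 4 groups Mx1 was called in neither route: 0.93 ± 0.63 (SE, adjusted p = 0.209) oral and 1.29 ± 0.6 (SE, adjusted p = 0.0723) intraperitoneal, or 0.96 ± 0.42 (SE, adjusted p = 0.0539) and 0.06 ± 0.49 (SE, adjusted p = 0.927) without library 28. Its oral change was called higher by DESeq2 without library 28 (0.98, adjusted p = 0.0428) and by edgeR on the oral groups alone (0.95, adjusted p = 0.0337). Mx2 stood at 0.731, 1.47, 0.954 and 1.42 CPM in vehicle oral and 1.64, 1.93, 1.17 and 1.27 CPM in IL-23 oral. It stood at 1.77, 1.03, 2 and 2.11 CPM in vehicle, 4.38 CPM in library 28 and 1.43, 1.78 and 2.16 CPM in the other IL-23 libraries after intraperitoneal dosing. The groups overlapped in both routes. Mx2 changed by 0.38 ± 0.32 (SE, adjusted p = 0.306) oral and 0.07 ± 0.34 (SE, adjusted p = 0.862) intraperitoneal without library 28, and by 0.36 ± 0.38 (SE, adjusted p = 0.429) and 0.54 ± 0.35 (SE, adjusted p = 0.191) with it, none called.

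The other 13 antiviral genes were mixed. With all libraries 3 of 13 were called higher after oral dosing (23.1%, against 29.2% of all genes) and 9 after intraperitoneal dosing (69.2%, against 30.8%), and 0 lower in each. Without library 28, 8 were called higher (61.5%, against 32.1%) and 2 lower after oral dosing, and 5 higher (38.5%, against 30.5%) and 1 lower after intraperitoneal dosing, so that the last share called higher was near the background.

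Zbp1, a sensor of left-handed nucleic acid, averaged 1.68 ± 0.634 CPM in vehicle oral and 6.37 ± 2.19 CPM in IL-23 oral (SD, n = 4 each). It changed by 1.92 ± 0.72 (SE, adjusted p = 0.0281) oral and 3.25 ± 0.7 (SE, adjusted p = 0.000758) intraperitoneal, or 1.95 ± 0.34 (SE, adjusted p = 6.76e-05) and 1.56 ± 0.37 (SE, adjusted p = 0.0016) without library 28. Isg15, a ubiquitin-like modifier, rose by 1.23 ± 0.44 (SE, adjusted p = 0.021) and 1.87 ± 0.44 (SE, adjusted p = 0.00138), or 1.27 ± 0.24 (SE, adjusted p = 0.000169) and 1.01 ± 0.26 (SE, adjusted p = 0.00306) without library 28, in the same order. Rtp4 changed by 1.13 ± 0.5 (SE, adjusted p = 0.0576) oral, not called, and 2.23 ± 0.5 (SE, adjusted p = 0.000976) intraperitoneal, or 1.16 ± 0.24 (SE, adjusted p = 0.000384) and 1.14 ± 0.27 (SE, adjusted p = 0.00126) without library 28. Bst2, the tether of budding virus particles, changed by 0.49 ± 0.37 (SE, adjusted p = 0.259) oral, not called, and 1.39 ± 0.37 (SE, adjusted p = 0.00372) intraperitoneal, or 0.52 ± 0.22 (SE, adjusted p = 0.0416) and 0.7 ± 0.24 (SE, adjusted p = 0.0158) without library 28.

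For the effector Rsad2 and the Isg15 protease Usp18 the called route changed with library 28. With all libraries both were called intraperitoneal and not oral: Rsad2 stood at 0.82 ± 0.47 (SE, adjusted p = 0.14) oral and 1.3 ± 0.47 (SE, adjusted p = 0.0243) intraperitoneal, and Usp18 at 0.62 ± 0.39 (SE, adjusted p = 0.181) and 1.36 ± 0.39 (SE, adjusted p = 0.0068). Without library 28 both were called oral and not intraperitoneal: Rsad2 stood at 0.84 ± 0.36 (SE, adjusted p = 0.0488) and 0.63 ± 0.41 (SE, adjusted p = 0.186), and Usp18 at 0.65 ± 0.25 (SE, adjusted p = 0.0261) and 0.64 ± 0.28 (SE, adjusted p = 0.0535). Without library 28, DESeq2 did not call Rsad2 oral (0.87, adjusted p = 0.0693) and called Usp18 intraperitoneal (0.65, adjusted p = 0.0401), as did edgeR on the intraperitoneal groups alone (0.63, adjusted p = 0.0439). Ifi44, Xaf1 and Cmpk2 were called in neither route without library 28, with changes from -0.32 to 0.26. With all libraries they changed by 1.27, 1.20 and 0.49 intraperitoneal, of which only Xaf1 was called (edgeR, adjusted p = 0.0203), and from -0.33 to 0.05 oral, none called.

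The RNA sensors and the RNA-dependent kinase did not move one way. Ifih1, which encodes the long-RNA sensor MDA5, rose in both routes, by 0.54 ± 0.19 (SE, adjusted p = 0.0182) and 0.98 ± 0.18 (SE, adjusted p = 0.000215), and by 0.56 ± 0.14 (SE, adjusted p = 0.00221) and 0.78 ± 0.15 (SE, adjusted p = 0.000309) without library 28. With plain library sizes and without library 28 its oral change was 0.34 and not called (edgeR, adjusted p = 0.0673). Dhx58, which encodes the related regulator LGP2, changed by 0.49 ± 0.18 (SE, adjusted p = 0.0243) oral and 0.17 ± 0.2 (SE, adjusted p = 0.485) intraperitoneal without library 28, the latter not called. With all libraries the calls were the other way round, at 0.47 ± 0.36 (SE, adjusted p = 0.272) oral, not called, and 0.91 ± 0.35 (SE, adjusted p = 0.034) intraperitoneal, called higher. The oral value without library 28 was 0.35 and not called when library 26 was left out too. Ddx58, which encodes the sensor RIG-I, stood at 22.2, 22.8, 23.8 and 26 CPM in vehicle oral and 15.8, 20.2, 17.1 and 16.1 CPM in IL-23 oral. It stood at 21.6, 18.3, 26 and 23.2 CPM in vehicle, 43 CPM in library 28 and 20.1, 17.5 and 19.7 CPM in the other IL-23 libraries by the other route. All 4 oral IL-23 libraries lay below all 4 vehicle libraries. Ddx58 was lower after oral dosing, at -0.42 ± 0.12 (SE, adjusted p = 0.00457) in the fit without library 28; with it the value was -0.45 ± 0.22 (SE, adjusted p = 0.0817), not called, and the intraperitoneal values were 0.19 ± 0.22 (SE, adjusted p = 0.466) with and -0.2 ± 0.13 (SE, adjusted p = 0.195) without, neither called. Eif2ak2, which encodes the RNA-dependent kinase PKR, stood at 20.1, 19.5, 16.5 and 20.4 CPM in vehicle oral and 14.8, 14.1, 13.7 and 15.6 CPM in IL-23 oral. It stood at 22.3, 19.8, 19.3 and 17.8 CPM in vehicle, 39.9 CPM in library 28 and 16.2, 14.8 and 17.2 CPM in the other IL-23 libraries after intraperitoneal dosing. Every IL-23 library except library 28 lay below every vehicle library of its route. Eif2ak2 was lower, at -0.36 ± 0.11 (SE, adjusted p = 0.00678) oral and -0.29 ± 0.12 (SE, adjusted p = 0.0399) intraperitoneal without library 28, while with it the values were -0.39 ± 0.24 (SE, adjusted p = 0.156) and 0.16 ± 0.23 (SE, adjusted p = 0.559), neither called. The intraperitoneal fall was not called by DESeq2 without library 28 (-0.28, adjusted p = 0.0602), nor without a count filter (adjusted p = 0.0693) or in the intraperitoneal groups alone (adjusted p = 0.0628).

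The interferon gamma targets were Gbp2, Gbp3, Gbp5, Gbp7, Cxcl9 and Irf1, set against the 10 type I targets. Their median change was 1.14 for the gamma class and 1.05 for the type I class after oral dosing, and 2.51 and 1.73 after intraperitoneal dosing. Without library 28 the oral medians were 1.17 and 1.08, and the intraperitoneal medians 1.19 and 0.73. Calls without library 28 were 4 of 6 and 5 of 10 oral (66.7% and 50%, against 32.1% of all genes called higher), and 5 of 6 and 5 of 10 intraperitoneal (83.3% and 50%, against 30.5%), all higher. With all libraries they were 1 of 6 and 4 of 10 oral (16.7% and 40%, against 29.2%), the gamma share below the background, and 6 of 6 and 6 of 10 intraperitoneal (100% and 60%, against 30.8%). No test was made between the classes, whose genes share their libraries.

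Library by library, the median gamma target stood above the median type I target in some IL-23 libraries and level in others. These values are log2 CPM differences from the vehicle mean of the same route. Library 28 held 4.08 for the gamma class and 2.88 for the type I class. Oral libraries 24 and 68 held 1.27 and 1.22 for the gamma class against 0.78 and 0.44 for type I, and intraperitoneal libraries 31 and 25 held 1.09 and 1.15 against 0.34 and 0.57. In libraries 14, 26 and 61 the classes were level, at 0.78 against 0.79, 1.34 against 1.38 and 1.05 against 1.02. Outside library 28 the gamma class thus ran from 0.78 to 1.34 with IL-23, and the type I class from 0.34 to 1.38. Vehicle libraries ran from -0.40 to 0.67 for the gamma class and from -0.38 to 0.41 for type I, with vehicle library 51 the highest of the former.

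**Figure D3:**
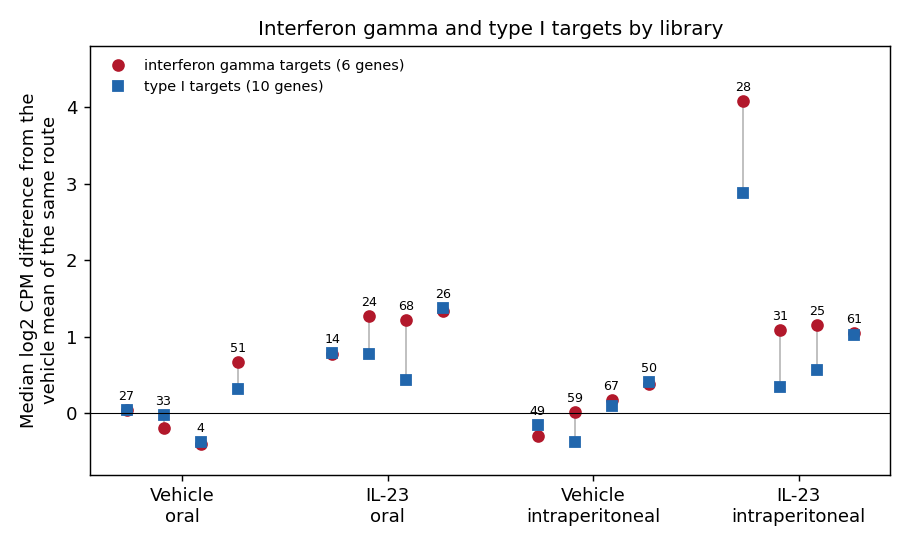
Median log2 CPM difference from the vehicle mean of the same route, for 6 interferon gamma targets (circles) and 10 type I targets (squares) in each library, labelled with its title number and joined by a line. Library 28 holds 4.08 and 2.88, and the gamma circles of the remaining 7 IL-23 libraries range from 0.78 to 1.34.

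The routes were compared by the intraperitoneal change minus the oral change. No member was called, and 0% of all genes tested were called, with or without library 28. By edgeR the unadjusted p was under 0.05 for 2 of 39 members, Gbp3 and Cd274, and for 5.43% of all genes; without library 28 it was so for 2 others, Irf7 and Oas2, and for 4.98%. DESeq2 gave an unadjusted p under 0.05 for 1 member, Cd274, and called none, with 11 members lacking an adjusted p; without library 28 it gave Irf7 and Oas2 and called none. The median difference over the 39 members was 0.75 with all libraries, positive in 39 of 39, and -0.05 without library 28, positive in 15. Over all 14671 genes tested the median difference was 0.03, positive in 8250, and 0 without library 28, positive in 7476. For Gbp2 the difference was 1.99 ± 0.99 (SE, adjusted p = 0.875), and 0 ± 0.29 (SE, adjusted p = 1) without library 28. For Oas2 it was 0.11 ± 0.71 (SE, adjusted p = 0.986) and -0.95 ± 0.4 (SE, adjusted p = 0.977).

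**Figure D4:**
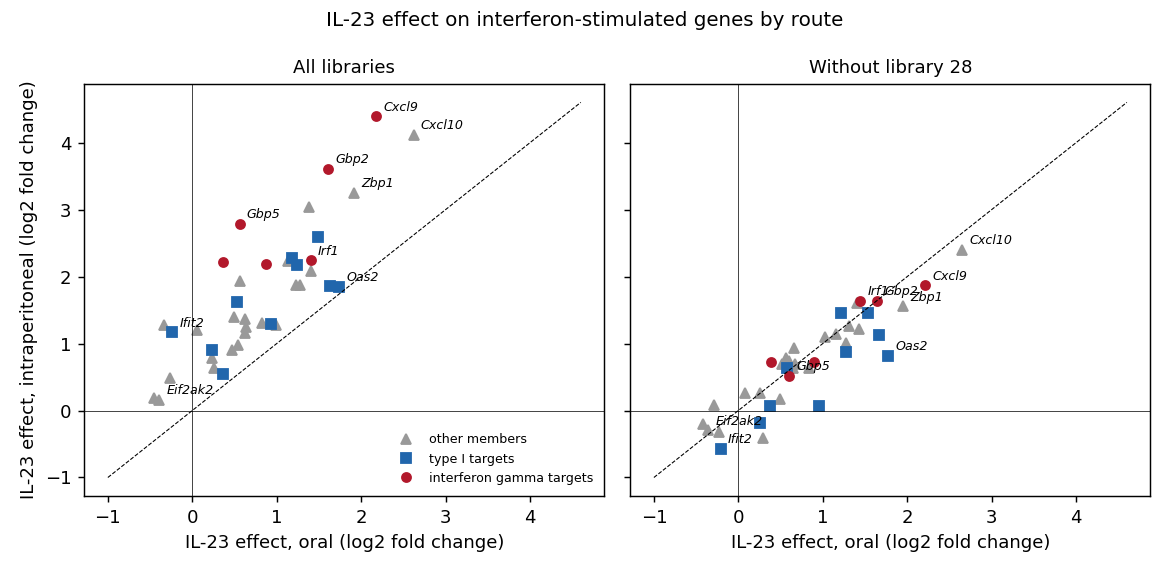
IL-23 effect as log2 fold change after oral dosing (horizontal) and intraperitoneal dosing (vertical) for the 39 members that passed the count filter, with all libraries on the left and without library 28 on the right; the dashed line marks equal effects. All 39 points lie above the line on the left, and 15 do on the right.

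The genes around these members, from lists of the same pathway, were read in the mean over both routes, in which 34.9% of all genes were called higher and 38.7% lower, or 36.1% and 38.3% without library 28. Of 18 receptor and signalling genes, 10 were called higher (55.6%) and 1 lower, or 10 and 3 without library 28. Socs1, the inhibitor of JAK kinases, rose by 1.92 ± 0.14 (SE, adjusted p = 2.19e-09), and the receptor subunit genes Ifngr1 and Ifngr2 stood at 1.06 and 0.96. Tyk2, the kinase of the type I receptor, was lower, at -0.6 ± 0.08 (SE, adjusted p = 5.71e-06). Of 11 genes of nucleic acid sensing, 6 were higher (54.5%) and 0 lower, or 6 and 2 without library 28, led by Tmem173 (which encodes STING) at 1.7 ± 0.2 (SE, adjusted p = 9.58e-07) and the adaptor gene Myd88 at 1.48 ± 0.08 (SE, adjusted p = 6.42e-11). Of 13 genes of interferon gamma induction, 6 passed the count filter, 5 higher and 1 lower with or without library 28: Il18rap, a chain of the IL-18 receptor, rose by 3.58 ± 0.28 (SE, adjusted p = 7.9e-09), Stat4 by 2.72 ± 0.37 (SE, adjusted p = 4.36e-06), and Il18 was lower, at -0.67 ± 0.11 (SE, adjusted p = 3.54e-05).

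Among the 19 tested of 26 other interferon gamma inducible genes, 15 were called higher and 0 lower over both routes, or 15 and 1 without library 28. Socs1 is also on this list. Gbp8 changed by 2.36 ± 0.62 (SE, adjusted p = 0.00263) and by 1.4 ± 0.36 (SE, adjusted p = 0.00177) without library 28, the immunity-related GTPase gene Iigp1 by 2.18 ± 0.6 (SE, adjusted p = 0.00366) and 0.96 ± 0.24 (SE, adjusted p = 0.00139), and the immunoproteasome gene Psmb10 by 1.53 ± 0.19 (SE, adjusted p = 1.53e-06) and 1.3 ± 0.09 (SE, adjusted p = 6.07e-10). Among the 27 tested of 30 other type I inducible genes, 16 were higher and 3 lower, or 14 and 6 without library 28. Ifitm3, which blocks viral entry, rose by 2.1 ± 0.11 (SE, adjusted p = 6.42e-11) and by 2.05 ± 0.09 (SE, adjusted p = 2.86e-12) without library 28, Trex1, a DNA exonuclease gene, by 1.56 ± 0.11 (SE, adjusted p = 2.21e-09) and 1.5 ± 0.09 (SE, adjusted p = 1.23e-10), Ifi204 by 1.88 ± 0.41 (SE, adjusted p = 0.000567) and 1.17 ± 0.17 (SE, adjusted p = 7.72e-06), and Ifi205 by 2.4 ± 0.55 (SE, adjusted p = 0.000801) and 1.61 ± 0.34 (SE, adjusted p = 0.000336). The median over both routes without library 28 was 0.70 for the gamma inducible list and 0.32 for the type I list, beside -0.03 over all genes tested.

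The genes outside these lists whose log2 CPM most resembled the median gamma target over the 16 libraries were Clec4a1, Dock2, Ctsz, C1ra and Ctss, the last encoding the lysosomal protease cathepsin S. Pearson's r was 0.970 for Clec4a1, 0.962 for Dock2 and 0.959 for the others, and 0.843 to 0.916 over the 15 libraries without 28. All points share library 28 and the same scaling factors, and these values are a description. Several marker lists moved with IL-23 outside library 28 too. Monocyte and macrophage markers summed to 507 to 855 CPM in the other 7 IL-23 libraries against 245 to 373 CPM in vehicle. In 6 of those 10 genes every such IL-23 library lay above every vehicle library, and Adgre1, Csf1r, Ly6c2 and C1qa overlapped vehicle. Neutrophil markers summed to 26.7 to 72.5 CPM against 2.29 to 7.39 CPM, with Csf3r and Cxcr2 above vehicle and 3 of 6 genes at 0 in at least 1 of these IL-23 libraries. Skeletal muscle markers summed to less, 1060 to 2070 CPM against 2360 to 5260 CPM. The part of these lists in the members' rise was not tested.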

How the data were processed

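Per the labels' protocols, total RNA of the 16 samples went through a stranded TruSeq workflow and was read on a HiSeq instrument. The submitters' processing notes list FastQC, STAR 2.52, featureCounts (Subread 1.5.0) and the build GRCm38. How strand and multi-mapping reads were handled, and which annotation was used, is not given in the sources used here. Values in the deposited table are raw counts per gene, whole numbers whose sums differ between libraries. Every column was matched to a sample by its title, and 0 columns were left unused. No pair of libraries held identical values.

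The test was edgeR 4.0.16 (R 4.3.3, limma 3.58.1) on these counts: TMM factors, filterByExpr with a minimum count of 10, 4 group means with 12 residual degrees of freedom, 2-sided quasi-likelihood tests and Benjamini-Hochberg adjustment over all 14671 genes tested (14832 without library 28). The SE is the change divided by the square root of the F statistic. CPM use TMM factors, and log2 CPM a prior count of 2. Ifng and Cxcl11, under the filter, were read from a fit of all 20799 genes with a count. DESeq2 1.42.0, RLE factors, plain library sizes, no filter, fits of the groups compared alone and leaving out each library were alternatives. The edgeR script was tested on simulated data. No count fell on 5558 genes.

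All 41 members are named; values in every library are given for Ifng, the 6 interferon gamma targets and the 10 type I targets, and for Cxcl10, Ddx58 and Eif2ak2, which were chosen after their values were seen. From each pathway list up to 4 called genes with the largest change over both routes were eligible, and the 5 genes most like the gamma targets by Pearson correlation. Oas1b, Oas1c and Oas1g were named besides, as relatives of members. The members and lists were chosen with earlier results of these data known. All 41 members matched RefSeq (GRCm38.p6) by gene ID, which supplied positions and promoter windows. The values of 1 gene of the signalling list are not reported here.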

Additional observations from a re-analysis of the deposited data

Results flagged for a closer look

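Within each group of 4, a library was set apart when its gap to the nearest other library divided by the group's range exceeded Dixon's 95% critical value. This held for 45 of 164 gene and group pairs. A rate of about 1 in 20 would hold only for separate, normally distributed values, and these genes share the same libraries. Library 28 had been singled out beforehand, so its count is a description. Of the 45 pairs, 34 were library 28 in the IL-23 intraperitoneal group. Its CPM there were 607 for Gbp2, 113 for Gbp3, 61.3 for Gbp5, 119 for Gbp7, 241 for Igtp and 169 for Irgm1 among the GTPases. The chemokines and the ligand stood at 135 for Cxcl9, 154 for Cxcl10, 2.77 for Cxcl11 and 3.35 for Ifng. Antigen-processing and checkpoint genes stood at 289 for Tap1, 222 for Psmb8, 87.8 for Psmb9 and 105 for Cd274, and transcription factors at 201 for Irf1, 102 for Irf7 and 118 for Stat2. Type I targets stood at 32.3 for Ifit1, 54.1 for Ifit2, 52.3 for Ifit3, 10.6 for Mx1, 10.7 for Oasl1 and 75.4 for Oasl2. The other antiviral genes stood at 55.3 for Isg15, 21.8 for Usp18, 6.92 for Ifi44, 43.0 for Ddx58, 28.8 for Dhx58, 39.9 for Eif2ak2, 87.2 for Bst2, 31.6 for Xaf1, 52.0 for Zbp1, 54.9 for Rtp4 and 18.9 for Cmpk2.

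In IL-23 oral, library 26 was apart from the other 3 at 33.4 CPM for Irf7, 23.5 for Isg15 and 19.9 for Oasl2. The rest were vehicle libraries. In vehicle oral, library 4 was low for Irf1 at 15.4 CPM and library 51 high for Ifi44 at 3.25 CPM. In vehicle intraperitoneal, library 50 was high for Stat2 at 43.0 CPM and Mx1 at 3.69 CPM, library 59 low for Ifit3 at 7.78 CPM and Cmpk2 at 5 CPM and high for Cxcl11 at 0.715 CPM, and library 67 held the group's 2 counts of Ifng, 0.2 CPM.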

How the results depend on the processing

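No paired analysis was possible because no title number occurs in more than 1 sample. Leaving out each of the 16 libraries in turn gave 9 (without library 26) to 26 (without library 28) members higher after oral dosing, 23 to 34 after intraperitoneal dosing and 28 to 31 over both routes, and 0 to 2, 0 to 1 and 0 to 2 lower, each lower call arising without library 28. The difference between routes gave 0 calls in every such fit. Shares of all genes called are given above only for all libraries and for the fit without library 28. The other counts in this section have no background beside them. The gamma median ran from 0.98 to 1.33 oral, 1.19 to 2.83 intraperitoneal and 1.17 to 1.88 over both routes, and the type I median from 0.82 to 1.21, 0.73 to 1.99 and 0.83 to 1.58. Of the oral calls made with all libraries, those of Igtp, Oas3, Oasl1 and Zbp1 were lost without any of 12, 10, 5 and 4 single libraries other than 28, that of Isg15 without library 26 and that of Ifih1 without library 14; all 6 were called without library 28. The intraperitoneal calls of Dhx58 (without 59, 67 or 50), Rsad2 (49 or 59) and Xaf1 (59) were lost likewise and were not called without library 28.

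Plain library sizes gave 8 members higher and 1 lower oral, with all genes' median moved by -0.20. The oral groups alone gave 26 and 2. The settings that follow were chosen after seeing the data. Without library 28, oral counts were 26 and 2 with RLE factors, 28 and 2 with no count filter, 26 and 2 with DESeq2, and 2 lower with plain library sizes; without libraries 28 and 26 also 2 were lower. Intraperitoneal counts without library 28 were 1 lower with RLE factors, 17 higher and 4 lower with plain library sizes, and 1 lower without libraries 28 and 26. Over both routes the lower counts were 2 with RLE factors, 4 with plain library sizes, 2 with no count filter, 2 with DESeq2 and 3 without libraries 28 and 26. Plain library sizes without library 28 gave medians of 0.93 (gamma, intraperitoneal), 0.47 (type I, intraperitoneal) and 0.59 (type I, both routes).

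Intraperitoneal values changed sign relative to the fit of all libraries, with a call on at least 1 side, under plain library sizes without library 28 for Irf7 (-0.67), Ifit2 (-0.82), Ddx58 (-0.45), Dhx58 (-0.09), Eif2ak2 (-0.55) and Xaf1 (0, adjusted p = 0.991). Leaving out single libraries gave Eif2ak2 values from -0.29 to 0.31. Eif2ak2 was -0.29 without library 28, -0.28 there with RLE factors and -0.29 without libraries 28 and 26. Of 3021 values of single genes under all settings, 2790 kept their direction and side of the threshold or were called in neither, 102 lost a call and 120 gained one. Apart from the construction of these fits (fewer libraries, another scaling), the cause was not tested. Depth limits Ifng, Cxcl11 and the interferon ligands.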
